A study of Drosophila melanogaster with 2 samples.

Results

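Regions recovered with a GFP-tagged Hr38 protein were described at 9 genes of the epidermal growth factor receptor (EGFR) pathway of Drosophila melanogaster, out of 13968 protein-coding genes on 7 chromosome arms. The genes were taken by name for their roles in the pathway: Egfr, spi, vn, rho, aos, sty, kek1, pnt and aop. A region was counted for a gene when its summit lay in the gene span of the Ensembl models or within 10 kb of either end. The assay was chromatin immunoprecipitation with sequencing (ChIP-seq), with an antibody against GFP, on sonicated chromatin of whole white prepupae. The animals, pooled males and females of the strain Hr38-GFP, stably carry a transgene for Hr38 with GFP at its C terminus. Their labelled age was 48 h, with no starting point named for that count. There was 1 group of 2 samples, which the labels call biological replicates, so no conditions were compared. A control experiment is named in the labels and was not analysed here. Because whole animals were used, strong binding in few cells and weak binding in many cannot be told apart.

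Hr38 is an orphan nuclear receptor, the Nr4a-type receptor of flies. In the fly EGFR pathway, the protease Rhomboid (rho) cleaves the membrane precursor of the ligand Spitz (spi), while the neuregulin-like ligand Vein (vn) is secreted without that step. Ligand binding to the receptor tyrosine kinase Egfr acts through Ras and the MAP kinase cascade on a pair of Ets-domain factors, the activator Pointed (pnt) and the repressor Anterior open or Yan (aop). Argos (aos), Kekkon-1 (kek1) and Sprouty (sty) limit the signal, and the pathway is known for wing vein, eye and tracheal development.

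Peaks that passed the authors' irreproducible discovery rate (IDR) threshold, called thresholded peaks here, were found at 4 of the 9 genes: the ligand gene vn, the feedback inhibitor gene sty and both Ets factor genes, pnt and aop. These 4 genes had 7 of the 768 thresholded peaks, and Egfr, spi, rho, aos and kek1 had none. The share of genes was 44.4% of the 9, against 24.8% of 1552 genes of similar length and 20.6% of all protein-coding genes. Inside the gene span the counts were 3 of the 9 genes (vn, sty and pnt), against 10.9% of the genes of similar length and 3.31% of all. None of the 9 had a thresholded summit within 500 bp of a transcription start site (TSS) of its own, against 4.32% of the genes of similar length and 3.92% of all. No test was made of these differences, and with 9 genes a single gene moves a share widely.

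**Figure D1:**
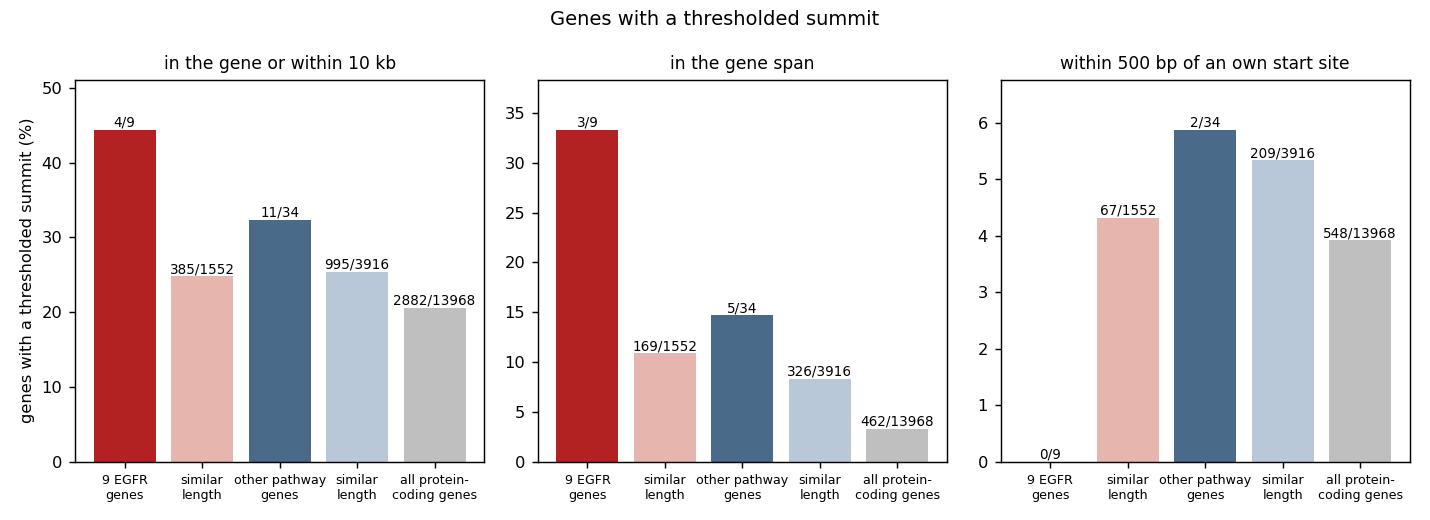
Share of genes (vertical axis, percent) with a thresholded summit in the gene or within 10 kb (left), in the gene span (middle) and within 500 bp of an own TSS (right). Bars stand for the 9 EGFR genes, their genes of similar length, 34 other pathway genes, the genes of similar length to those, and all 13968 protein-coding genes. The 9 genes have the tallest bar in the left and middle panels, with 4 and 3 genes, and none in the right panel.

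Each list gives a region a score, the authors' own value, whose scale the sources used here do not state. A higher score places a region nearer the top, and rank 1 is the highest score. The thresholded scores ran between 78.0 and 629 with a median of 106, and the 768 peaks were the top 768 of the 19279 regions in the list made from both replicates pooled. Thus a peak has the same rank in both lists, and a pooled region below rank 768 did not pass. The pooled list is labelled as peaks and background, taken as input for IDR. Its regions below the threshold therefore need not be binding sites. The replicate lists are longer, with 30000 regions in replicate 1 and 29031 in replicate 2, and their scores are on separate scales, so ranks rather than scores were set side by side. All 7 peaks at the EGFR genes were 380 bp wide with the summit at the middle. That is the usual width in the thresholded and pooled lists, against 370 bp in replicate 1 and 400 bp in replicate 2.

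The peaks inside vn, sty and pnt and the peak upstream of aop lay closer to a TSS of that gene than to one of any other protein-coding gene. Sequences are shown for these 4 of the 7 peaks. Distance alone does not show which gene a peak acts on. In the windows of the genes of similar length, 36.6% of thresholded summits had the gene's own TSS as the nearest. There, 40.9% lay in the gene span, against 3 of the 7 here. Each line gives the 201 bases centred on the summit, on the plus strand of the release 6 (dm6) assembly as RefSeq gives it, and the capitals mark the 21 bases centred on the summit. All 4 genes lie on the minus strand, so the genes read from right to left.

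The vn line covers chr3L:5834348-5834548 in the first intron, the sty line chr3L:3418856-3419056 in the first intron, the pnt line chr3R:23326369-23326569 in the third intron, and the aop line chr2L:2184255-2184455 upstream of the gene.
vn intron: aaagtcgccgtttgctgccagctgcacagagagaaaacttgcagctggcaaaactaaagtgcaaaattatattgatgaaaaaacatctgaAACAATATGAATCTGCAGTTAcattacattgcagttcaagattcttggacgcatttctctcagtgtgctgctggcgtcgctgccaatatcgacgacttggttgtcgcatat
sty intron: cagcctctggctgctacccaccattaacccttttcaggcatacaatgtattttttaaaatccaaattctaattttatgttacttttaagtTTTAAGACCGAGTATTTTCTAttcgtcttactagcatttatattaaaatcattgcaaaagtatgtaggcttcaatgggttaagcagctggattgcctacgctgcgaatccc
pnt intron: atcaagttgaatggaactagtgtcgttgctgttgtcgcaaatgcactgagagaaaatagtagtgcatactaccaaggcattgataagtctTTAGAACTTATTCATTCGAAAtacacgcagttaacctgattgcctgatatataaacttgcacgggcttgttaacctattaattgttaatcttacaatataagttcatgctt
aop upstream: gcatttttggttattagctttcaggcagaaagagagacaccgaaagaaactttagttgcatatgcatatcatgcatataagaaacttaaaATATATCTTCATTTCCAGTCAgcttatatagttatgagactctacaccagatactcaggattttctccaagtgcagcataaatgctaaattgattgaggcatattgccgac

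GC content was 42.3% in the vn window, 35.8% in the sty window, 35.3% in the pnt window and 35.3% in the aop window. Over all 7 windows the median was 35.8%, against 37.8% over the 768 thresholded windows. None of the 7 windows held any of the motifs searched on both strands. These were the response element of Nr4a receptors (NBRE, AAAGGTCA) and the nuclear receptor core AGGTCA that the NBRE contains, the Ets letters CCGGAAG, the GAGA letters GAGAGAG, and the AP-1 letters TGACTCA and TGAGTCA, which are reverse complements of each other. Among all 768 windows 2 (0.260%) held the NBRE, 20 (2.60%) the core, 4 (0.521%) the Ets letters, 50 (6.51%) the GAGA letters and 24 (3.12%) the AP-1 letters. Windows with at least 1 of them numbered 92 (11.98%). The palindrome CAGCTG was added after the sequences had been read. It stood in 3 of the 7 windows, against 85 of 768 (11.1%). The vn line holds it in a pair of copies, 80 and 57 bases left of the summit, the sty line holds it 75 bases to the right, and the other window is downstream of aop. Over the 100 pooled-list regions at the 9 genes, 13 held CAGCTG, against 11.7% of the whole pooled list. At least 1 of the motifs searched first stood in 12 of them, against 11.8%. The NBRE stood in 1 (against 0.659%), the core in 3 (5.11%) and the Ets letters in 3 (1.68%). The GAGA letters stood in 5 (3.77%) and the AP-1 letters in 2 (1.73%). Letters in a window are a description and not a bound site, and their absence says only that they are not in that window.

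Among the ligand genes, vn (FBgn0003984, chr3L:5813338-5845664) had the highest peak of the 9 genes. Its peak at chr3L:5834258-5834637 lay in intron 1 of 5, in both annotated transcripts, 11216 bp downstream of the gene's TSS. The score was 207 in the pooled list (rank 69), 114 in replicate 1 (rank 70) and 89.8 in replicate 2 (rank 84). The replicate summits lay 6 and 23 bp from the pooled one. The best pooled score at vn was above that at 194 of the 200 genes nearest to it in length, whose median best score was 50.9. A peak 5812 bp past the end of vn, at chr3L:5807336-5807715, lay in an intron of S6k, which encodes a ribosomal protein S6 kinase, and the TSS of S6k was nearest, at 3405 bp. That peak scored 109.5 in the pooled list (rank 353), 66.2 in replicate 1 (rank 271) and 44.7 in replicate 2 (rank 556). In all, vn had 8 pooled regions, equal to the median of 8 in genes of similar length, and 2 of them lay in the gene, against a median of 5. The replicate 1 count was 9, against a median of 13, and the replicate 2 count was 13, equal to the median.

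The other ligand gene, spi (FBgn0005672, chr2L:19567900-19577315), had no thresholded peak, and its top region was close below the threshold. That region scored 74.0 (rank 863) in the pooled list, where the lowest thresholded peak scored 78.0, and its summit was 199 bp from a TSS of spi. It ranked 4150 in replicate 1 and 413 in replicate 2. The next spi region, in an intron, scored 64.4 (rank 1171) and ranked 26579 in replicate 1 and 866 in replicate 2. Both regions thus stood high in replicate 2 and far lower in replicate 1. The region 5119 bp upstream of spi, which scored 55.2 (rank 1785), lay closer to the TSS of another gene, Hakai, which encodes an E3 ubiquitin ligase. In all, spi had 9 pooled regions, against a median of 5 in genes of similar length, and 6 of them lay in the gene.

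The gene for the ligand-processing protease, rho (FBgn0004635, chr3L:1463811-1468944), had the fewest regions of the 9 in the pooled and replicate 2 lists. Its 2 pooled regions scored 32.8 (rank 11956) and 29.0 (rank 17592), both past the end of the gene, and neither overlapped a replicate 2 region. The first lay 144 bp from the TSS of robl62A and 13952 bp from that of rho. The second lay inside Ptp61F and Naa30B, 828 bp from the TSS of Naa30B and 7421 bp from that of rho. No summit lay inside rho in any of the lists. The window held 6 regions of replicate 1 and 3 of replicate 2, against medians of 6 and 7 in genes of similar length, and the pooled count of 2 stood against a median of 4.5.

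The receptor gene Egfr (FBgn0003731, chr2R:21522420-21559977) had 13 pooled regions, 9 of them in the gene, and none passed the threshold. The highest scored 55.7 (rank 1744) and lay 1068 bp past the end of Egfr in the neighbouring gene twz, with rank 1015 in replicate 1 and no overlapping region in replicate 2. The highest in the gene scored 55.3 (rank 1781), in intron 1 and 1843 bp from the TSS at the 5' end, with rank 1264 in replicate 1 and rank 5542 in replicate 2. Another in intron 1 scored 51.2 (rank 2240), with rank 24680 in replicate 1 and rank 878 in replicate 2. These scores were common for a gene of that length: the best score at Egfr was above that at 113 of 200 genes, whose median best score was 52.4. The nearest thresholded peak beyond the window was 16393 bp past the end of Egfr, scored 105 (rank 392), and lay 335 bp from the TSS of twz. By comparison, the most distant peak inside a window was the one 9077 bp past the end of aop.

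Among the inhibitors, sty (FBgn0014388, chr3L:3401153-3424935), which encodes an intracellular antagonist of receptor tyrosine kinase signalling, had a pair of thresholded peaks. The peak at chr3L:3418766-3419145 lay in the only intron of the longer transcript, 995 bp upstream of the internal TSS of sty. It scored 129 in the pooled list (rank 234), 54.6 in replicate 1 (rank 438) and 71.6 in replicate 2 (rank 164). The peak at chr3L:3394735-3395114 lay 6228 bp past the end of sty, outside any protein-coding gene, with the TSS of Ids, the iduronate 2-sulfatase gene, nearest at 16657 bp. It scored 91.4 in the pooled list (rank 531), 54.7 in replicate 1 (rank 435) and 36.7 in replicate 2 (rank 934). The replicates put these peaks in a different order: in replicate 1 they stood at neighbouring places, and in replicate 2 the intron peak was far above the other. The sty window held 14 pooled regions, more than 194 of the 200 genes of similar length.

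The gene of the secreted antagonist Argos, aos (FBgn0004569, chr3L:16470386-16483650), had 10 pooled regions, against a median of 5.5 in genes of similar length, and none passed the threshold. The highest, in intron 1 and 1397 bp from the TSS, scored 62.1 (rank 1283) and ranked 5196 in replicate 1 and 1257 in replicate 2. It lay also inside an intron of CG33158, a gene that overlaps aos, so the region cannot be given to aos alone. For kek1 (FBgn0015399, chr2L:12817000-12822787), which encodes a transmembrane protein that binds the receptor, the highest of 6 pooled regions scored 40.4 (rank 5497), 1929 bp upstream of the gene. It overlapped no replicate 1 region and ranked 1525 in replicate 2. No other protein-coding gene lies in the kek1 window. In the pooled list the best score at kek1 was above that at 47 of 200 genes of similar length. That at rho was above 13 of 200, and these were the lowest places among the 9 genes. For kek1 the replicates differed, with 62 of 200 in replicate 1 and 117 of 200 in replicate 2. For rho they gave 26 and 27 of 200.

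Both Ets factor genes had thresholded peaks. In pnt (FBgn0003118, chr3R:23290231-23346167), the peak at chr3R:23326279-23326658 lay in intron 3 of 8 of the longest transcript, 12154 bp upstream of the nearest internal TSS of pnt and 19698 bp downstream of the 5' end. It scored 99.7 in the pooled list (rank 440), 60.8 in replicate 1 (rank 340) and 34.2 in replicate 2 (rank 1157). The replicate summits lay within 5 bp of the pooled one. The pnt window held 25 pooled regions, of which 15 were in introns, and 199 of the 200 genes of similar length had fewer. Apart from the thresholded peak, the highest pnt region scored 53.6 (rank 1944), also in intron 3, so 1 peak stood above a row of low regions.

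In aop (FBgn0000097, chr2L:2156484-2178754), both thresholded peaks lay outside the gene. The peak at chr2L:2184165-2184544 was 5601 bp upstream, in an intron of the noncoding gene lncRNA:CR43751, with the TSS of aop as the nearest protein-coding TSS. It scored 88.1 in the pooled list (rank 579), 42.2 in replicate 1 (rank 798) and 32.4 in replicate 2 (rank 1374). The peak at chr2L:2147217-2147596 was 9077 bp past the end of aop and 111 bp from the TSS of Tbcd, which encodes a tubulin-binding cofactor. It scored 118 in the pooled list (rank 299), 57.9 in replicate 1 (rank 383) and 58.4 in replicate 2 (rank 272). The stronger of the aop peaks is therefore a promoter peak of another gene by distance. At an own TSS, aop had a pooled region of score 61.0 (rank 1330), 76 bp away, which ranked 2763 in replicate 1 and 2831 in replicate 2. The aop window held 13 pooled regions, against a median of 7 in genes of similar length.

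**Figure D2:**
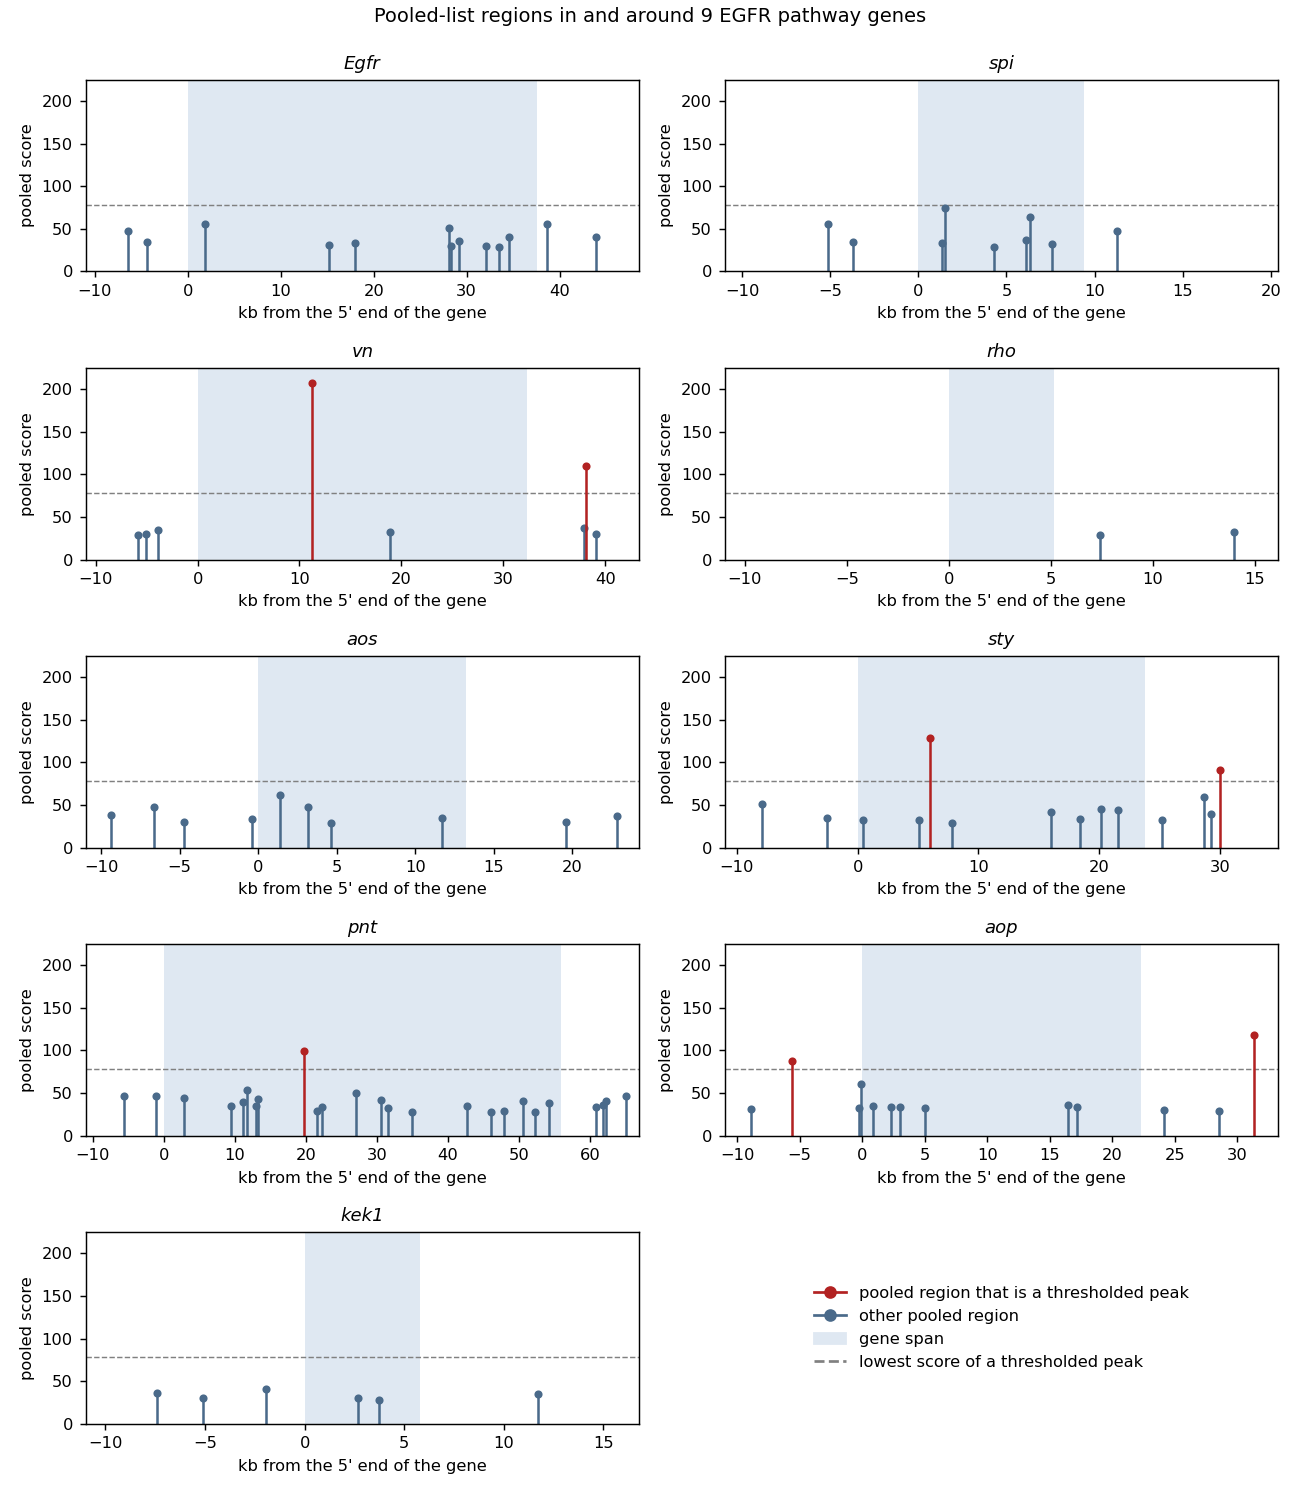
Score of each pooled-list region (vertical axis) by the distance of its summit in kb from the 5' end of the gene (horizontal axis), for the 9 genes with 10 kb on either side. Red marks the 7 thresholded peaks, shading the gene span, and the dashed line the lowest thresholded score of 78.0. The vn intron peak at 207 is the tallest, pnt has the most regions with 25, and rho has 2 low regions outside the gene.

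Below the threshold the 9 genes had 93 further pooled regions, which makes 100 with the thresholded ones, against 115 regions in replicate 1 and 132 in replicate 2. The pooled list includes background by its label, so these counts describe the list and not bound sites. Deposited -log10 q values, lower for weaker evidence, were 2.47 at the thresholded pnt peak and 1.62 at the top spi region. At the rho regions they were 0.0438 and 0.0217. In the pooled list, 7 of the 9 genes had more regions than the median of their 200 genes of similar length, vn was equal to it and rho was below. In replicate 1 the count was above the median at 5 genes (Egfr, aos, sty, pnt and aop), and in replicate 2 at 6 (the same 5 and spi). The pnt counts were 28 in replicate 1 and 32 in replicate 2, against medians of 18 and 16.5. The sty counts were 14 and 17, against medians of 10 and 11, and the aop counts were 13 and 20, against medians of 10 and 11. For aos the replicates differed, with 16 regions in replicate 1, more than 198 of 200 genes, and 10 in replicate 2, more than 109 of 200.

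**Figure D3:**
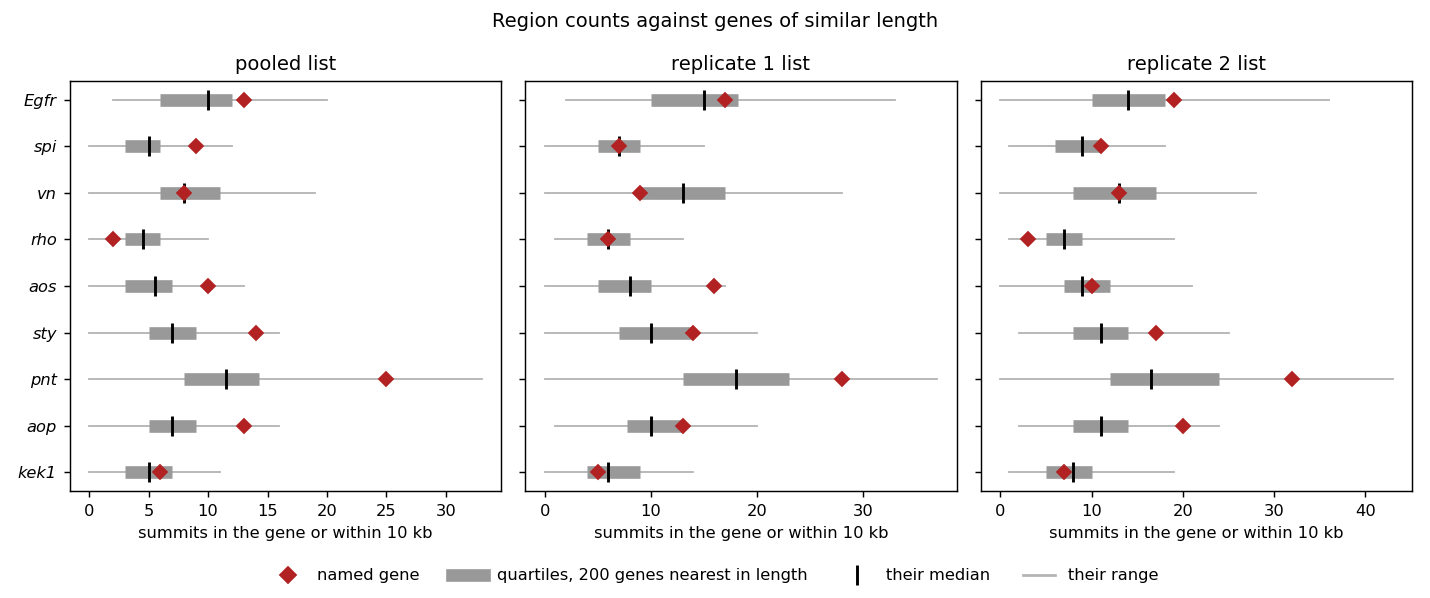
Number of region summits in the gene or within 10 kb (horizontal axis) for each of the 9 genes, in the pooled, replicate 1 and replicate 2 lists. Diamonds are the named genes, and grey bars, black ticks and lines give the quartiles, median and range of the 200 protein-coding genes nearest in length. The pnt diamond lies right of the grey bar in each panel, with 25, 28 and 32 regions, and the rho diamond lies left of it in the pooled and replicate 2 panels.

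Windows of this kind take in other genes. The Egfr window holds 9 other protein-coding genes, the spi window 8, the pnt window 7, the vn, rho and aop windows 4 each, the aos window 3, the sty window 1 and the kek1 window none. Of the 100 pooled summits, 56 lay in the gene itself and 67 were nearest to a TSS of the named gene, against 50.1% and 39.0% for the genes of similar length. By place, 38 of the 100 lay in introns, 10 within 500 bp of an own TSS, 8 in coding exons and 3 in 5' UTRs. For the genes of similar length these shares were 32.5%, 6.99%, 10.3% and 0.911%. The remaining 41 lay in the flanks, 19 upstream and 22 downstream. At the promoter, 5 of the 9 genes (spi, aos, sty, pnt and aop) had a pooled summit within 500 bp of an own TSS, against 36.7% of the genes of similar length and 26.2% of all protein-coding genes. Of these 5, spi, pnt and aop had a promoter summit in each replicate list too, while aos had one in replicate 1 alone and sty in replicate 2 alone. Without one in the pooled list, Egfr and kek1 had a promoter summit in replicate 2 alone and rho in replicate 1 alone. No list had one at vn.

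The replicates ordered the lower regions differently. Of the 100 pooled regions 49 overlapped a region in both replicate lists, 28 in replicate 1 alone, 19 in replicate 2 alone and 4 in neither. The shares overlapped were 77.0% in replicate 1 and 68.0% in replicate 2, against 76.0% and 65.1% over the whole pooled list. All 7 thresholded peaks overlapped regions in both replicates, with ranks between 70 and 1374. The 768 thresholded peaks were the top of the list made from both replicates, so this overlap is not independent of their selection. Of all 768, a replicate 1 region was overlapped by 756 and a replicate 2 region by 768, so overlap with replicate 1 was not required. Neighbouring pooled regions can overlap the same replicate regions, and those at the 9 genes that overlapped both replicates made 43 distinct pairs. Among the 36 pairs other than those of the 7 peaks, none had a rank within 1374 in both. That cut is the worst rank of the 7 peaks themselves, so the separation follows in part from how they were selected. Of the 15 pooled regions at the 9 genes with a rank within 1000 in at least 1 replicate, 5 ranked beyond 10000 or were absent in the other. Counted as distinct pairs of replicate regions, these were 3 of 11, at Egfr, spi and sty. Over the whole pooled list the counts were 390 of 1560 regions and 359 of 1424 distinct pairs.

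**Figure D4:**
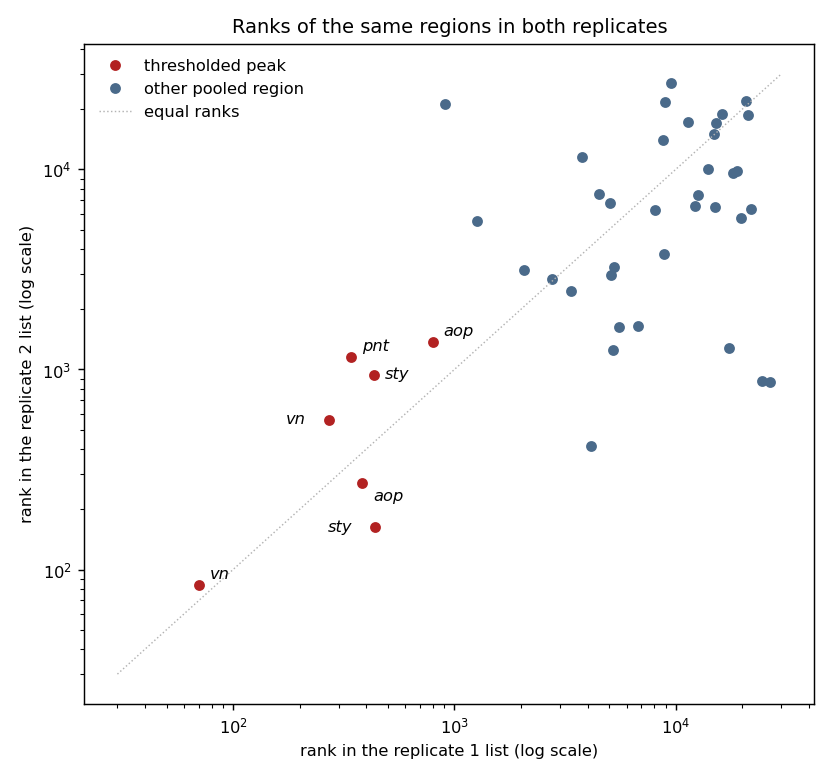
Rank in replicate 1 (horizontal axis) against rank in replicate 2 (vertical axis), both on log scales, for the 43 distinct pairs of replicate regions that pooled regions at the 9 genes overlap. Red points are the 7 thresholded peaks and blue points the other 36, and the dotted line marks equal ranks. The red points lie at ranks between 70 and 1374 in both replicates, and no blue point lies within rank 1374 in both. The red points are among the top 768 of the list pooled from both replicates, so their selection was not independent of either ranking.

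Other genes of the EGFR, Ras and MAP kinase pathway were described from a list of 34, chosen for their role. A thresholded summit lay in the gene or within 10 kb at 11 of them (32.4%), against 25.4% of 3916 genes of similar length. It lay in the gene at 5 (drk, S, Raf, cic and edl), against 8.32% of those genes, and within 500 bp of an own TSS at 2 (Shc and Ras85D), against 5.34%. The adaptor gene Shc had a peak of score 257 (rank 38), 114 bp from its TSS, which ranked 51 in replicate 1 and 32 in replicate 2. The Shc window also held a peak of score 85.3 (rank 611) closer to the TSS of aay. Ras85D, the Ras GTPase gene, had a peak of score 90.5 (rank 545), 9 bp from its TSS, with rank 545 in replicate 1 and rank 577 in replicate 2. The kinase gene Raf, downstream of Ras, had a pair of intron peaks of scores 209 (rank 63) and 125 (rank 259), and its upstream peak of score 84.0 (rank 639) lay closer to the TSS of CG2865. Star (S), which carries the Spitz precursor out of the endoplasmic reticulum, had an intron peak of score 190 (rank 88), and an upstream peak of score 83.0 (rank 662) closer to the TSS of Atg4a.

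The other list genes with a peak were drk, edl, cic, ed, Krn, Cbl and kek6. The peak in an intron of drk, the Grb2 adaptor gene, scored 102 (rank 426) and lay closer to the TSS of mars. The edl intron peak, in a gene for an antagonist of both Ets factors, scored 90.1 (rank 549), and the 5' UTR peak of the repressor gene cic scored 88.2 (rank 577). The peak 724 bp upstream of ed, which encodes an adhesion protein, scored 112 (rank 333) and ranked 972 in replicate 1 and 163 in replicate 2. Upstream of the ligand gene Krn, a peak of score 89.9 (rank 553) lay closer to the TSS of CG7484. The peaks in the window of the ubiquitin ligase gene Cbl, of scores 107 (rank 371) and 83.6 (rank 649), lay closer to the TSSs of CG32354 and Unr. The peak in the window of kek6, a relative of kek1, scored 267 (rank 34) and lay 14 bp from the TSS of Mnat9. The remaining 23 list genes had no thresholded summit in their windows.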

How the data were processed

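The deposited files are narrowPeak lists, on both dm6 and dm3. Per the text lists deposited with the libraries, there is a list for each replicate, a list from both pooled, and an IDR-thresholded list made from these. Neither the aligner, the peak caller nor the IDR threshold is stated in the sources used here. The score that the authors deposited for a region (signal value) has no stated scale and was used to rank regions. The deposited -log10 q values served as an alternative ranking. Summits came from another deposited column, the summit's offset within its region. No read counts were used, so depth is unknown and no interval is given.

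The dm6 lists were used on 7 arms (X, Y, 2L, 2R, 3L, 3R and 4); 5 mitochondrial regions of replicate 2 were left out. Gene models were those of Ensembl release 115, with release 6 sequence. A summit within 500 bp of an own TSS was placed in the promoter, and otherwise by 5' UTR, 3' UTR, coding exon, intron or flank. Regions overlapped when they shared at least 1 bp. Genes of similar length were, for each gene, the 200 other protein-coding genes nearest in length. The 34 pathway genes were all matched by symbol, 1 of them (Gap1) through its current symbol RasGAP1. Motifs were searched within 100 bp of the summit. With 1 group, counts are given beside those of other genes with no test. The genes named are the 9 members, the list genes with a thresholded summit, and any gene that overlaps or neighbours a named peak, always where its TSS is nearer; the members and lists were chosen with earlier results of these data known. Scripts in Python 3.11.15 (numpy 2.4.6, pandas 2.3.3, matplotlib 3.10.9) were tested on simulated data. Alternatives were other flanks, summit definitions, thresholds, single replicates, length sets, promoter widths and motif windows.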

Additional observations from a re-analysis of the deposited data

How the results depend on the processing

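Of 65 alternative values of the counts, 53 stayed within 1.5 times the reported count. The ranks of single peaks were not among these values. The number of EGFR genes with a thresholded summit ran between 3 and 5 and was 4 with either replicate's top 768 regions alone. Those of replicate 1 gave vn, sty, pnt and aop, and those of replicate 2 gave vn, sty, spi and aop, so 3 genes were shared. The highest-scoring 384 peaks left vn, sty and aop, and a 20 kb flank added Egfr. The share of all protein-coding genes with such a summit moved as well, so these counts are not comparable across settings. It was 12.0% with the 384 peaks, 32.0% with a 20 kb flank, 13.4% with 5 kb and 3.31% with the gene span. With the top 768 regions it was 20.3% in replicate 1 and 19.8% in replicate 2. With the gene span alone, thresholded summits at the 9 genes numbered 3, pathway list genes 5, and summits in the pooled, replicate 1 and replicate 2 lists 56, 55 and 79. A flank of 5 kb gave 3 thresholded summits. The highest-scoring 384 peaks gave 4 thresholded summits and 6 list genes. Within 1000 bp of an own TSS lay the summit at 1 gene (sty), and leaving out each replicate in turn gave between 0 and 1 gene, the 1 being spi in replicate 2. Leaving out each replicate in turn gave 5 to 6 thresholded summits, 11 to 12 list genes and 5 to 6 genes above the median of similar length. Windows of 250 bp to each side held a searched motif at 1 of the 7 peaks (GAGA letters, at sty). Over all 768 thresholded peaks, 31.6% of such windows held a searched motif and 21.2% the GAGA letters. CAGCTG, chosen after seeing the data, gave 3 within 100 bp. Ranked by -log10 q, 4 of the 7 peaks tied at rank 1, a value that 404 of the 768 peaks share. No paired analysis was possible because there is 1 group, with no second group to share replicate numbers. Read depth is unknown, the order of low regions differed between replicates, and a window of 10 kb takes in neighbouring genes.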
